A study of Mus musculus with 2 samples.

Results

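The Hba-a2 class of mouse bone marrow progenitors, cells that the deposited cell annotation names after the alpha-globin gene Hba-a2, held 612 of 14795 cells. There were 318 of them among 7889 cells of the library labelled Runx1 KO and 294 among 6906 cells of the Control library. Members were the cells that carry this class name in the annotation, so the class itself was built from expression, by steps that no label or file header records. Both libraries came from hind-limb marrow of C57BL/6 mice, sorted as negative for lineage markers, positive for c-Kit and negative for Sca1, and were made with the 10x Genomics 3′ kit, version 3. The labels give the KO-labelled library the genotype Runx1 KO and name no mouse number, Cre driver or deleted exon for it. The Control library pooled 1 Runx1f/f and 1 Runx1f/- mouse, so part of the Control cells carried 1 mutant allele. Each genotype had 1 library: differences between libraries have no replicate and no test, and every interval covers counting error but not the spread between mice.

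Red cells form from progenitors that first rely on the receptors Kit and Epor, then switch on the transcription factors Gata1 and Klf1 more fully, load iron through the transferrin receptor, make heme and at last fill with hemoglobin. Hemoglobin joins alpha chains, here from Hba-a1 and Hba-a2, with beta chains, here from Hbb-bs and Hbb-bt. Carbonic anhydrase 1 and carbonic anhydrase 2 interconvert carbon dioxide and bicarbonate in red cells, and Rhd and Rhag belong to the Rh blood group complex of the red cell surface. Runx1 is a transcription factor needed for blood formation and for megakaryocyte and platelet development.

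The 250 bases before the RefSeq start of 5 genes of the class are shown because these genes carry its main results: the globin genes differed between libraries, and Rhd and Rhag set the class apart. They come from RefSeq on GRCm38.p6, run 5′ to 3′ in the direction of the gene, and are in lower case with 3 kinds of motif in capitals. The motifs were AGATAA or TGATAA, letters recognised by GATA factors, CCACACCC, letters recognised by erythroid KLF factors, and TGTGGT, letters recognised by RUNX factors, each on either strand. Hba-a2 lies before its start at chr11:32296242-32296491 (+), Hba-a1 at chr11:32283422-32283671 (+), Hbb-bs at chr7:103827929-103828178 (-), Rhd at chr4:134864286-134864535 (+) and Rhag at chr17:40810899-40811148 (+). GENCODE, which gives the gene positions elsewhere in the text, places some starts farther upstream: 161 bases of the Hba-a1 window, 168 of Hbb-bs, 23 of Rhag, 3 of Hba-a2 and 0 of Rhd lie inside the GENCODE gene.
Hba-a2: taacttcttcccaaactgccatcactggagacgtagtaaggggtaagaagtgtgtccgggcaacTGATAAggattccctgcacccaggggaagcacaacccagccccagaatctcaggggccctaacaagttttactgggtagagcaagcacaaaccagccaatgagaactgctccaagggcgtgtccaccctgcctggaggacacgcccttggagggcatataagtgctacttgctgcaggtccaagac
Hba-a1: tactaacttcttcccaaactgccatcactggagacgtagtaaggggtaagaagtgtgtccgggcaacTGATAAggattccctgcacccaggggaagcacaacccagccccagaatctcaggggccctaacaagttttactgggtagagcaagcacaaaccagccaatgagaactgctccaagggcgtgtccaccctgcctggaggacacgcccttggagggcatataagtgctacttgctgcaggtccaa
Hbb-bs: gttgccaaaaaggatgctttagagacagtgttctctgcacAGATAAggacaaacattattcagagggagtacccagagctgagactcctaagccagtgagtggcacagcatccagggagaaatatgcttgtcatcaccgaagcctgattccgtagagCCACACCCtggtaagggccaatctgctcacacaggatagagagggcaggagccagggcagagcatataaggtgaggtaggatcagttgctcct
Rhd: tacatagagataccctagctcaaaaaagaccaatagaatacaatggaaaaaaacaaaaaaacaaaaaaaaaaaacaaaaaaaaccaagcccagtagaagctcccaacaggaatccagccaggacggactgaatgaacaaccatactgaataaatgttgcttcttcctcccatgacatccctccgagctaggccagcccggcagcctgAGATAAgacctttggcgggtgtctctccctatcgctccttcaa
Rhag: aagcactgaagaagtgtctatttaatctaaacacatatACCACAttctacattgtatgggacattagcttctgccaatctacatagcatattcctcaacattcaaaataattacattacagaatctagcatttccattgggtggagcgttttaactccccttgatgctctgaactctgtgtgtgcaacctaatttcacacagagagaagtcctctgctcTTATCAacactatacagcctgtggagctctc

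The GATA letters ended at -181 in Hba-a2, -178 in Hba-a1, -205 in Hbb-bs, -38 in Rhd and, on the other strand, -26 in Rhag, counting back from the start. The KLF letters occurred in Hbb-bs from -93 to -86, and the RUNX letters in Rhag, on the other strand, from -212 to -207. The full windows searched also hold the first 50 bases of each gene. Among the 15 genes that stood highest in the class over other cells, 10 were tabulated, and 5 of these 10 held the GATA letters. The KLF letters occurred in 1 of these 10 genes and the RUNX letters in 3. Over all 27025 tabulated genes the share with the GATA letters was 21.0%, and the shares with the KLF and RUNX letters were 4.09% and 18.9%. A match describes letters in a window and not a bound site. The Hba-a1 and Hba-a2 windows were identical over 297 aligned bases, and the annotated transcripts matched at 537 of 538 aligned bases. Of the 50-base words of the Hba-a2 transcript, 86.9% also occur in Hba-a1, so how the counting divided reads between these 2 genes is uncertain, and the same caution holds for the paralogs Hbb-bs and Hbb-bt.

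The class made up 4.03% of cells in the KO-labelled library (exact Clopper-Pearson 95% interval 3.61 to 4.49%) and 4.26% in Control (3.79 to 4.76%), intervals that overlap. The median cell held 37146 UMIs (unique molecular identifiers, each counting 1 captured transcript) in the KO-labelled library and 51294.5 in Control, the highest of the 11 and 14 classes with at least 20 cells. The next class, Gstm1/CD63, had medians of 26825 and 28810 UMIs. When every cell was thinned to 5000 UMIs, the median number of detected genes was 1899.5 in KO-labelled cells and 1909 in Control cells, with 24 and 22 shallower cells left out. Cells with at least 10% mitochondrial UMIs numbered 43 (13.5%) in the KO-labelled library, against 11 (3.74%) in Control. In clusters rebuilt from both libraries, 263 KO-labelled members (82.7%) and 285 Control members (96.9%) lay in 1 cluster led by Cldn13, Rhd, C1qtnf12 and Car2. A further 38 KO-labelled and 7 Control members lay in a cluster of mitochondrial transcripts, with medians of 4809.5 and 7531 UMIs. The cluster led by Cldn13 and Rhd also took in 106 KO-labelled and 217 Control cells of the Car1 class. As a whole it held 4.72% of KO-labelled cells (4.26 to 5.21%) and 7.28% of Control cells (6.68 to 7.92%), intervals that do not overlap. How the shares compare thus depends on which cells are counted as the class. The libraries shared 13 cell barcodes, none of them within the class.

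The 5 genes that mark the class stood higher in it than in every other class of at least 20 cells in both libraries. Levels are counts per 1000000 UMIs (CPM), from the UMIs of a gene summed over the cells of a class and library. Car2, carbonic anhydrase 2 (chr3:14886273-14900770), stood at 3029 CPM in KO-labelled members and 3383 CPM in Control members. In the Car1 class, named after carbonic anhydrase 1 and also erythroid, it stood at 568 CPM in KO-labelled cells and 1106 CPM in Control cells. Rhd (chr4:134864536-134896172) reached 384 CPM in KO-labelled and 269 CPM in Control members, against 36.2 and 54.6 CPM in the KO-labelled and Control Car1 classes. Cldn13, a claudin of the erythroid lineage in mice (chr5:134914249-134915526), reached 327 CPM in KO-labelled and 229 CPM in Control members, against 24.3 and 29.6 CPM in the KO-labelled and Control Car1 classes. Hba-a1 (chr11:32283511-32284465) had 555 CPM in KO-labelled members and 107 CPM in Control members. Hba-a2 (chr11:32296489-32297298), which gives the class its name, had 192 and 28.1 CPM. In all cells outside the class, Hba-a2 stood at 1.06 CPM in the KO-labelled library and 0.672 CPM in Control.

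**Figure D1:**
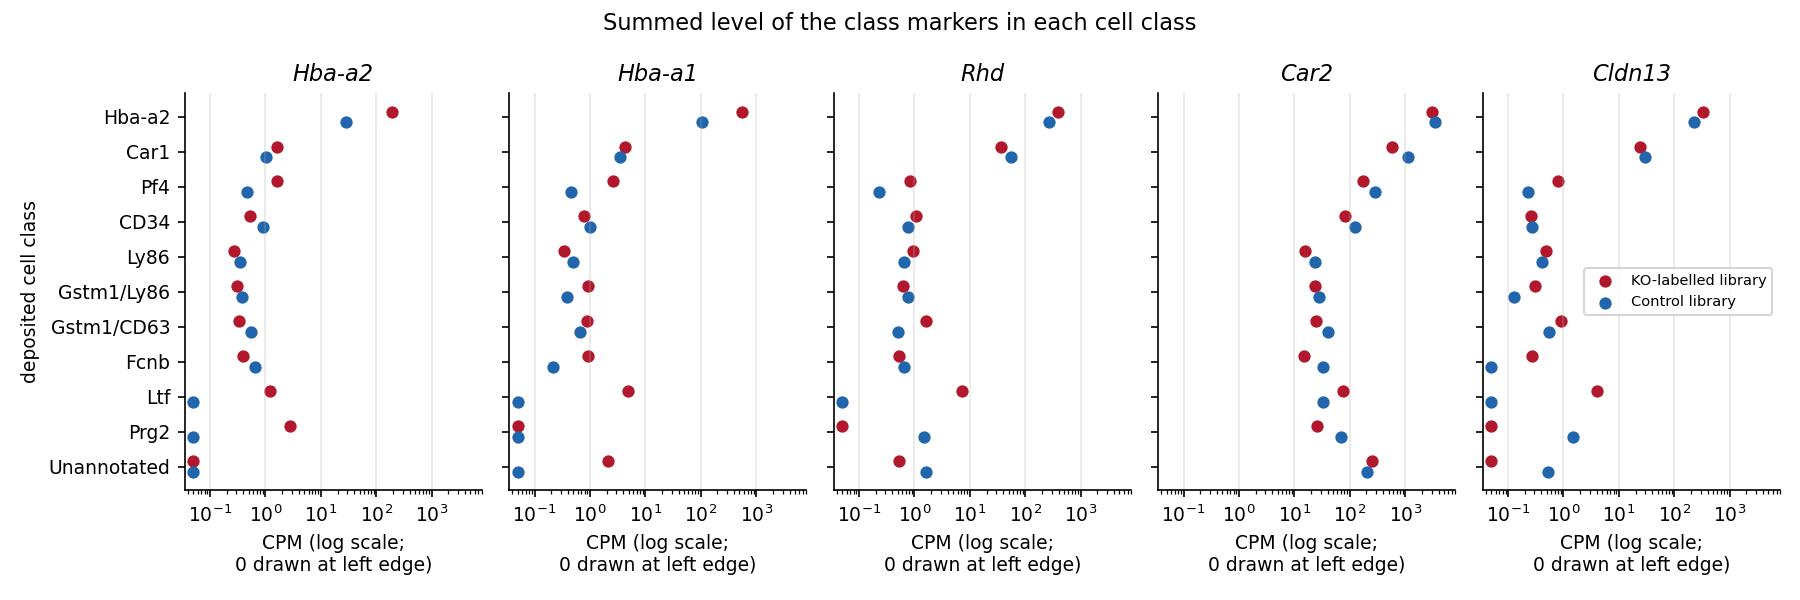
Summed level (CPM, log axis) of the 5 class markers in each deposited class with at least 20 cells in both libraries, KO-labelled cells in red above Control cells in blue. The Hba-a2 class, in the top row, holds the highest level of all 5 genes in both libraries, and the Car1 class comes next for Rhd, Car2 and Cldn13.

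Genes of the red cell surface, heme and iron were among those that stood higher in the class than in other cells. Genes count as measured when they reached 30 CPM on the higher side and 100 UMIs over both sides, and ratios are log2 of CPM after adding 10. Of 4997 genes measured in the KO-labelled library, 257 (5.14%) were at least 2-fold higher in the class than in all its other cells and 517 (10.3%) were at least 2-fold lower. In Control the counts were 247 of 4868 (5.07%) higher and 477 (9.8%) lower. The higher genes shared by both libraries numbered 201, which is 78.2% of the KO-labelled list and 81.4% of the Control list. As the class was built from these cells' expression, these counts describe it and test nothing.

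The 15 genes that stood highest in both libraries were Cldn13, Ctse, Rhd, Hba-a1, C1qtnf12, Car2, Hebp1, Hbb-bs, Sphk1, Rhag, Nxpe2, Mt2, Add2, Paqr9 and Blvrb. Ctse, the protease cathepsin E, had 278 CPM in KO-labelled members and 248 CPM in Control members, against 11.5 and 13.3 CPM in other KO-labelled and other Control cells. C1qtnf12, a secreted protein of the C1q and tumor necrosis factor family, had 773 CPM in KO-labelled and 848 CPM in Control members, against 58.5 and 75.4 CPM in other cells. Hebp1, a heme-binding protein, had 239 CPM in KO-labelled and 190.3 CPM in Control members, against 8.15 and 13.1 CPM in other cells. Rhag, the ammonium channel of the Rh complex, had 196 CPM in KO-labelled and 130.0 CPM in Control members, against 13.3 and 8.82 CPM in other cells. Add2, a subunit of the adducin of the membrane skeleton, had 97.9 CPM in KO-labelled and 93.5 CPM in Control members, against 3.64 and 5.58 CPM in other cells. Apart from Hbb-bs, found in 57.9% of KO-labelled and 30.6% of Control members, these genes were detected in most members, for example Rhd in 98.1% of KO-labelled and 97.3% of Control members, and Ctse in 90.9% and 94.2%.

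Among the lists, 11 of 13 measured heme synthesis genes were at least 2-fold higher in the class than in other KO-labelled cells, and 10 of 13 in Control, with median log2 ratios of 1.80 and 1.56. Over all measured genes the medians were 0.07 in the KO-labelled library and 0.12 in Control. Red cell membrane and cytoskeleton genes were 2-fold higher for 13 of 22 in the KO-labelled library and 12 of 22 in Control. Iron uptake and handling genes were 2-fold higher for 8 of 14 and 9 of 13. None of the 44 S phase genes was 2-fold lower in either library, and 6 in the KO-labelled library and 3 in Control were 2-fold higher. The 10 lowest genes were Elane, Prtn3, Ctsg, Mpo, Plac8, Ms4a3, Pf4, Tmsb4x, Nkg7 and Tyrobp, mostly granule and surface genes of neutrophils and other myeloid or lymphoid cells. Mpo, the myeloperoxidase of neutrophil granules, had 88.3 CPM in KO-labelled and 77.3 CPM in Control members, against 2005 and 2757 CPM in other cells.

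Against the Car1 class alone, 187 of 4908 measured genes (3.81%) were at least 2-fold higher in the Hba-a2 class of the KO-labelled library, and 372 (7.58%) were lower. In Control, 105 of 4806 (2.18%) were higher and 294 (6.12%) lower. The 93 higher genes found in both libraries are 49.7% of the KO-labelled list and 88.6% of the Control list. The Control count was 209 when cells were weighted equally and 246 when cells with over 2 times the class median of UMIs were left out. Tfrc, the transferrin receptor, had 240.3 CPM in KO-labelled and 246 CPM in Control members, against 64.1 and 70.9 CPM in the Car1 classes. Klf1, the erythroid transcription factor, had 327 CPM in KO-labelled and 332 CPM in Control members, against 102 and 180.3 CPM in the Car1 classes. Kit, the stem cell factor receptor used in the sort, had 75.8 CPM in KO-labelled and 80.3 CPM in Control members, against 152 and 174 CPM in the Car1 classes. Gata1 had 136 CPM in KO-labelled and 128 CPM in Control members, against 117 and 115 CPM in the Car1 classes. Tfrc, Klf1, Kit and Gata1 were chosen after their values were seen.

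Of genes used late in red cell formation, Alas2 and Slc4a1 had low levels in the class, though higher than in other cells. The terminal maturation gene Trim58 was low as well, at 4.13 CPM in KO-labelled and 1.57 CPM in Control members. Tspo2 and Hemgn had higher levels. Alas2, which starts heme synthesis in red cells, had 7.44 CPM in KO-labelled members and 0.822 CPM in Control members. In other cells Alas2 had 0.119 CPM in the KO-labelled library and 0.0739 CPM in Control. It was detected in 6.92% of KO-labelled and 2.38% of Control members. Of its 81 UMIs in KO-labelled members, 65 lay in the 9 cells with at least 1% globin UMIs. Of its 11 UMIs in Control members, 5 lay in the 2 such cells. Slc4a1, the band 3 anion exchanger of the red cell membrane, had 14.0 CPM in KO-labelled and 1.79 CPM in Control members. In other cells Slc4a1 had 0.0594 CPM in the KO-labelled library and 0 CPM in Control. Of its UMIs in KO-labelled members, 41.8% lay in 3 cells. Of the 27 terminal maturation genes, 14 were measured in the KO-labelled library and 13 in Control. In each library 3 of these were at least 2-fold higher in the class than in other cells, and none was 2-fold lower. Genes under the minimum enter neither count, so genes that are low throughout cannot appear there. Among the higher genes was Tspo2, a translocator protein of erythroid cells. Tspo2 had 220.5 CPM in KO-labelled and 166.5 CPM in Control members, against 35.5 and 40.7 CPM in other cells. Hemgn, hemogen, a nuclear protein of blood-forming cells, had 173 CPM in KO-labelled and 129.6 CPM in Control members, against 33.5 and 20.4 CPM in other cells. The embryonic globins Hba-x and Hbb-bh1 had no UMI in members of either library, which allows up to 0.275 CPM in KO-labelled and 0.224 CPM in Control members. Alas2, Slc4a1, Trim58, Tspo2 and Hemgn were chosen after their values were seen.

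Runx1, the targeted gene (chr16:92601466-92826149), did not read lower in the library labelled as its knockout. It had 86.6 CPM in KO-labelled members and 35.9 CPM in Control members, a ratio of 2.41 (exact Poisson 95% interval 2.16 to 2.69). At least 1 Runx1 UMI was found in 80.2% of KO-labelled and 64.6% of Control members. In the Car1 class it had 310 CPM in KO-labelled and 116 CPM in Control cells. The 3′ end of the transcript, which these UMIs read, does not check a deletion placed elsewhere in the gene, so the library is called KO-labelled throughout.

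All 4 adult globin genes were at least 1.5-fold higher in KO-labelled members. In the class 79 of 4397 measured genes (1.8%) were at least 1.5-fold higher in the KO-labelled library and 33 (0.751%) were at least 1.5-fold lower, with a median log2 ratio of -0.02 over all. These folds are taken after adding 10 CPM, whereas the ratios printed with an interval are of CPM as such. A gene under 30 CPM in 1 library was measured only through a higher level in the other. This holds for Hba-a2, higher in KO-labelled members, and for Aldh1a7, lower in them. With a minimum of 10 CPM and 30 UMIs the counts were 155 higher and 58 lower, and with cells weighted equally 148 and 54. After thinning to 5000 UMIs a cell, 93 genes were higher and 64 lower, and 41 and 23 of these were among the 79 and 33. Hbb-bs, adult beta-globin (chr7:103826534-103828096), had 876 CPM in KO-labelled and 99.1 CPM in Control members, a ratio of 8.84 (8.35 to 9.37). Hbb-bt, the second adult beta-globin gene (chr7:103812524-103813996), had 423 CPM in KO-labelled and 57.6 CPM in Control members, a ratio of 7.35 (6.80 to 7.94). The alpha-globin gene Hba-a2 had 192 CPM in KO-labelled and 28.1 CPM in Control members, a ratio of 6.82 (6.11 to 7.64). For Hba-a1 the levels were 555 CPM in KO-labelled and 107 CPM in Control members, a ratio of 5.18 (4.89 to 5.49). Hbb-bt also stood higher in KO-labelled cells outside the class. In the Car1 class Hbb-bt had 31.1 CPM in KO-labelled and 6.70 CPM in Control cells, and Hbb-bs, under the 30 CPM minimum there, 19.0 and 5.67 CPM. In all cells outside the class Hbb-bt had 26.7 CPM in KO-labelled and 4.68 CPM in Control cells. Hba-a1 had 4.35 CPM in KO-labelled and 3.52 CPM in Control cells of the Car1 class. Whether RNA from other cells adds to globin in members was not tested.

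A few cells carried much of the globin. At least 1% of UMIs came from globin genes in 9 KO-labelled and 2 Control members. These cells held 62.6% of all globin UMIs of KO-labelled members and 31.4% of those of Control members, and 1 cell alone held 30.8% and 27.6%. Summed globin was 2045 CPM in KO-labelled and 292 CPM in Control members, and without those cells 777 and 201 CPM. Without them the log2 ratios were 2.06 for Hbb-bs, 1.69 for Hbb-bt, 1.75 for Hba-a1 and 1.18 for Hba-a2, against 3.02, 2.68, 2.27 and 2.40 with them. All 4 genes stayed past 1.5-fold in each of the 13 other ways of processing the data.

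The difference also lay in the middle of the distribution. The median member had 0.0184% globin UMIs in the KO-labelled library and 0.00677% in Control, and the upper quartiles were 0.0857% and 0.0198%. A globin UMI was found in 250 KO-labelled members (78.6%) and 223 Control members (75.9%). At least 0.1% globin UMIs were found in 73 KO-labelled members (23.0%, interval 18.5 to 28.0%) and 13 Control members (4.42%, interval 2.38 to 7.44%). After thinning to 5000 UMIs, Hba-a1 was detected in 45.9% of KO-labelled and 24.6% of Control members, against 68.2% and 65.0% before thinning. In the Gstm1/CD63 class of neutrophil progenitors, which should lack globin, Hba-a1 was detected in 2.44% of KO-labelled and 1.29% of Control cells before thinning. Summed globin in that class was 8.02 CPM in KO-labelled and 4.21 CPM in Control cells. Some other classes held more, above all of Hbb-bt. In the CD34 class Hbb-bt had 74.4 CPM in KO-labelled and 11.8 CPM in Control cells, and was detected in 23.7% and 11.7% of them. In the Pf4 class it had 35.3 CPM in KO-labelled and 2.06 CPM in Control cells. Alpha-globin UMIs were 0.575 times the beta-globin UMIs in KO-labelled members and 0.863 times in Control members, and without cells of at least 1% globin 0.897 and 1.12 times.

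**Figure D2:**
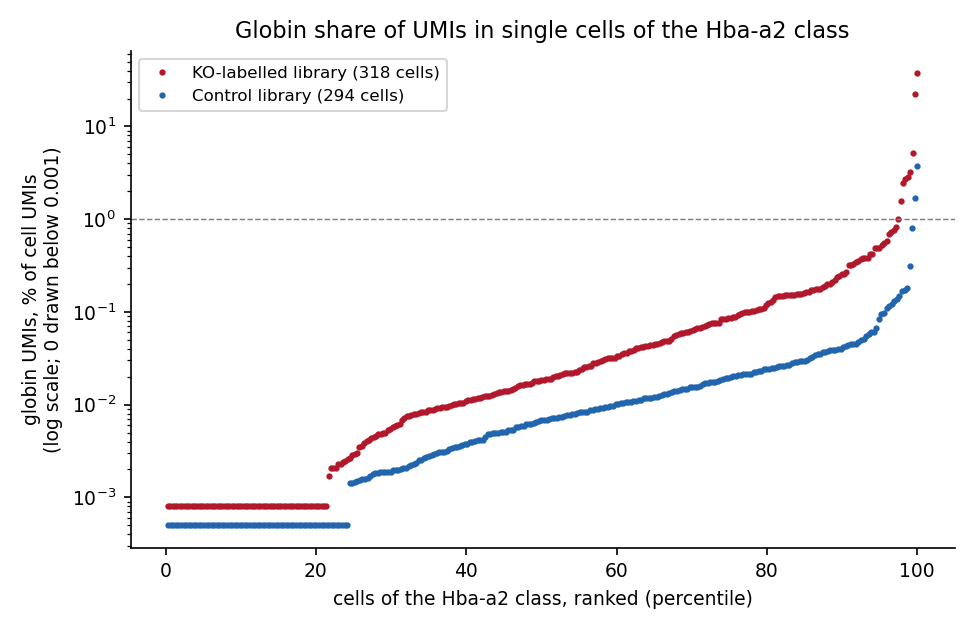
Globin UMIs as a percentage of all UMIs (log axis) in each cell of the Hba-a2 class, cells ranked from lowest to highest within a library, with KO-labelled cells in red and Control cells in blue and cells with no globin UMI drawn at the bottom. KO-labelled cells lie above Control cells of the same rank from about the lower quartile up, and 9 KO-labelled and 2 Control cells lie on or above the dashed line at 1%.

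Members with more globin had less Kit and more Slc4a1 in both libraries. Grouped by globin share as none, up to 0.1%, 0.1 to 1% and 1% or more, the KO-labelled groups held 68, 177, 64 and 9 cells, and the Control groups held 71, 210, 11 and 2 cells. Kit stood at 158, 80.2, 21.6 and 16.2 CPM along these groups in KO-labelled members. In Control members it stood at 119, 74.5, 26.4 and 0 CPM, the last from 0 UMIs over 2 cells, which allows up to 79.6 CPM. Slc4a1 had no UMI in members without globin, which allows up to 2.12 CPM in KO-labelled and 1.29 CPM in Control members, and reached 616 CPM in KO-labelled and 371 CPM in Control members with at least 1%. KO-labelled members without globin had a median of 16015 UMIs and Control members without globin 41404 UMIs, so the lowest group differed in depth between libraries. Within each globin group Car1 stood lower and Runx1 higher in KO-labelled members, though the top group held 22 KO-labelled and 1 Control Runx1 UMIs.

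**Figure D3:**
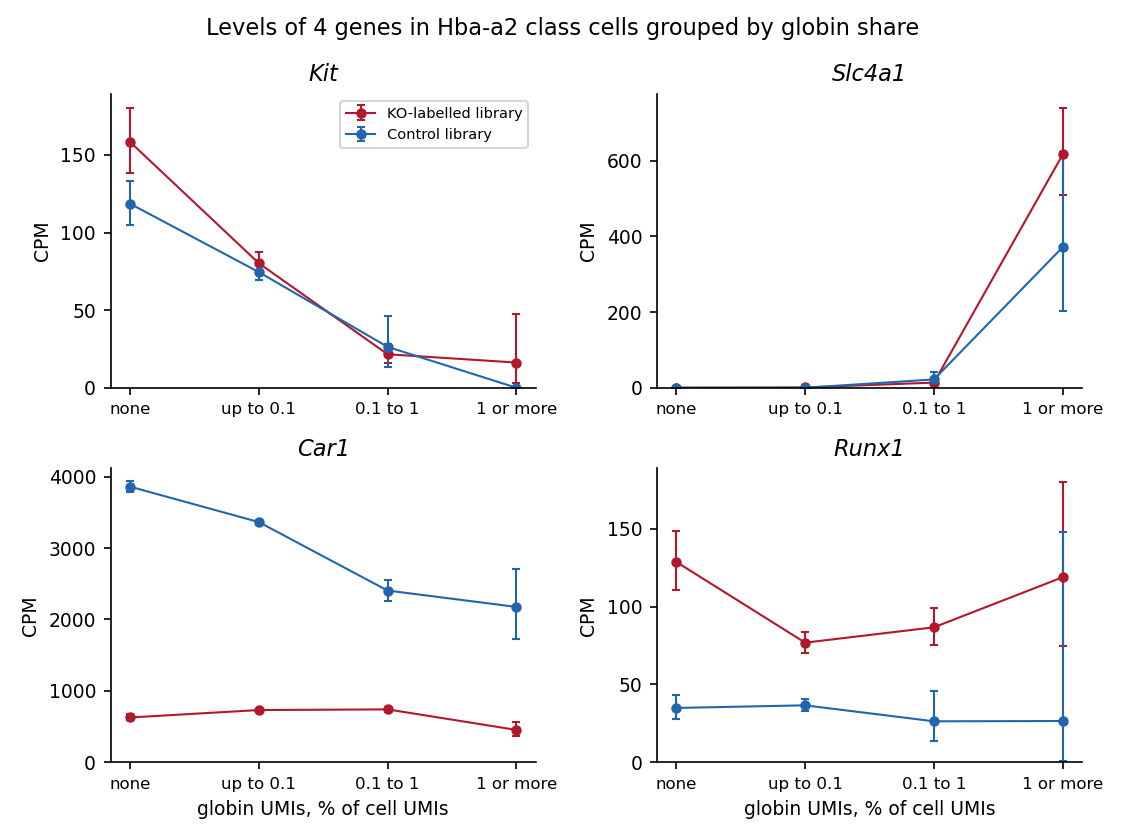
Summed level (CPM) of 4 genes in Hba-a2 class cells grouped by the percentage of their UMIs that are globin, from none to 1% or more, in KO-labelled cells (red) and Control cells (blue), with exact Poisson 95% intervals for counting error, and no upper bar on a level of 0. Kit is lower and Slc4a1 higher in the groups with more globin in both libraries, while Car1 is lower and Runx1 higher in KO-labelled cells in all 4 groups.

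Among genes lower in KO-labelled members, Car1 and Asns had the lowest log2 ratios after adding 10 CPM, and Aldh1a7 the lowest ratio of CPM as such among the 15 lowest genes. Car1, carbonic anhydrase 1 (chr3:14766216-14808368), had 716 CPM in KO-labelled and 3414 CPM in Control members, a ratio of 0.210 (0.205 to 0.215). The quartiles over cells were 29.5, 167 and 958 CPM in KO-labelled members and 2100.0, 3318 and 4720.0 CPM in Control members. A Car1 UMI was found in 78.6% of KO-labelled and 99.7% of Control members, and after thinning in 56.1% and 96.3%. In the Car1 class itself the levels were 261 CPM in KO-labelled and 2034 CPM in Control cells. Car2, which neighbours Car1 on chromosome 3, had a class ratio of 0.896 (0.883 to 0.908).

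Asns, asparagine synthetase (chr6:7675169-7693254), had 38.0 CPM in KO-labelled and 208 CPM in Control members, a ratio of 0.183 (0.165 to 0.203). An Asns UMI was found in 34.0% of KO-labelled and 90.5% of Control members. In the Car1 class Asns had 3.30 CPM in KO-labelled and 50.1 CPM in Control cells. Aldh1a7 and Aldh1a1, neighbouring aldehyde dehydrogenase genes on chromosome 19, were both lower. Aldh1a7 had 5.05 CPM in KO-labelled and 33.8 CPM in Control members, a ratio of 0.149 (0.111 to 0.198). Aldh1a1 had 19.9 CPM in KO-labelled and 58.2 CPM in Control members. As these paralogs are alike, the split of reads between them is uncertain. Bex4, an X-linked gene, had 67.8 CPM in KO-labelled and 169 CPM in Control members. Cenpv, a centromere protein, had 81.0 CPM in KO-labelled and 165 CPM in Control members. The 15 lowest genes were completed by Lgals1, Ryk, Epdr1, Prss50, Tmsb10, Polr2l, Usp50, Cmtm7 and Prelid2, whose KO-labelled over Control ratios lay between 0.379 for Lgals1 and 0.515 for Cmtm7.

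The 15 genes highest in KO-labelled over Control members fell into 3 kinds beside the globins. The first kind were neutrophil granule and calcium-binding genes, the 5 measured of 15 mature neutrophil markers, Camp, S100a9, S100a8, Lcn2 and Ngp, and for these the 3 highest KO-labelled cells held between 90.7% and 93.5% of a gene's UMIs. Apart from S100a9, these genes reached the 30 CPM minimum only in KO-labelled members, so being measured already required a high KO-labelled level. S100a8, a subunit of calprotectin, had 308 CPM in KO-labelled and 28.0 CPM in Control members. Within the cluster led by Cldn13 and Rhd it had 24.8 CPM in KO-labelled and 28.0 CPM in Control members. S100a9, its partner, had 366 CPM in KO-labelled and 33.1 CPM in Control members, and within that cluster 33.7 and 33.1 CPM. Camp, the granule peptide cathelicidin, had 103 CPM in KO-labelled and 2.02 CPM in Control members, and within the cluster 9.19 and 1.74 CPM. Camp stayed past 1.5-fold in each of the 13 alternatives. These score a gene even where it falls under the 30 CPM minimum, as Camp did within the cluster. Lcn2, lipocalin 2, had 3.32 CPM in KO-labelled and 0.529 CPM in Control members of the cluster, and Ngp, a granule protein, 2.74 and 1.51 CPM. Lcn2 and Ngp were past 1.5-fold in 9 of 13 alternatives each. All 15 mature neutrophil markers together summed to 926 CPM in KO-labelled and 75.8 CPM in Control members, with 90.2% and 70.7% of the UMIs in 3 cells of each library. Within the cluster the sums were 88.6 CPM in KO-labelled and 75.4 CPM in Control members. At least 1 S100a8 UMI was found in 56.6% of KO-labelled and 22.8% of Control members, and in 38.8% of KO-labelled and 16.3% of Control cells of the Car1 class. Scrublet, a doublet caller, marked 21 KO-labelled members (6.60%) and 5 Control members (1.70%), against 3.38% and 2.22% of all cells in each library. Of the 5 measured neutrophil progenitor genes, Prtn3 was past 1.5-fold, at 89.3 CPM in KO-labelled and 46.8 CPM in Control members, and its log2 ratio was -0.04 without the marked doublets.

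The second kind were genes of the megakaryocyte lineage, which differed in how far the difference was spread over cells. All 5 measured members of the 18 megakaryocyte genes were at least 1.5-fold higher in KO-labelled members, with a median log2 ratio of 1.90, though a low gene can be measured at all because its higher side is high. Nrgn, neurogranin, found in platelets, had 131 CPM in KO-labelled and 15.9 CPM in Control members, a ratio of 8.22 (7.11 to 9.54). It was detected in 79.2% of KO-labelled and 38.1% of Control members, and its 3 highest KO-labelled cells held 8.35% of its UMIs. Itga2b, the platelet integrin subunit CD41, had 41.9 CPM in KO-labelled and 2.02 CPM in Control members. The log2 ratio of Itga2b was 2.11, and 1.505 without the marked doublets. Pf4, platelet factor 4, had 42.4 CPM in KO-labelled and 4.03 CPM in Control members, with 56.7% of the KO-labelled UMIs in 3 cells. The log2 ratio of Pf4 was 1.90, and 1.05 without the 3 highest cells of each library. In the Car1 class Pf4 ran the other way, at 102 CPM in KO-labelled and 153 CPM in Control cells, a difference between classes that was not tested. Gp5, a platelet glycoprotein, had 34.0 CPM in KO-labelled and 14.0 CPM in Control members. Rap1b, a small GTPase of platelets and other cells, had 135 CPM in KO-labelled and 77.8 CPM in Control members, and its log2 ratio was 0.44 without the marked doublets, under the threshold. The 18 genes summed to 477 CPM in KO-labelled and 124 CPM in Control members, with 1 and 6 of them at 0. Within the cluster led by Cldn13 and Rhd the sums were 396 and 124 CPM. Outside the class the same genes summed to 3275 CPM in other KO-labelled cells and 657 CPM in other Control cells. Whether RNA from other cells adds to the levels in members was not tested.

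The third kind included Ctla2a and Tmsb4x, genes not specific to the erythroid lineage. Ctla2a, a cysteine protease inhibitor, had 37.3 CPM in KO-labelled and 4.93 CPM in Control members, against 541 and 365 CPM in the Car1 classes. Tmsb4x, the actin-binding thymosin beta 4, had 370.1 CPM in KO-labelled and 118 CPM in Control members, against 1516 and 1139 CPM in the Car1 classes. Outside these 15 genes, Apoe, apolipoprotein E, which is high in early erythroid progenitors, had 257 CPM in KO-labelled and 84.9 CPM in Control members, against 3784 and 1710 CPM in the Car1 classes.

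The heme, membrane, iron and terminal maturation lists held 0 or 1 measured gene past 1.5-fold between the libraries. This is near the background of 1.8% higher and 0.751% lower over all measured genes. Members under the 30 CPM minimum enter no such count. Of these, Alas2, Slc4a1, Dmtn, Btg2 and Bpgm were past 1.5-fold higher in KO-labelled members, with log2 ratios of 0.69, 1.03, 0.63, 0.95 and 0.63. No member of these lists under the minimum was past 1.5-fold lower. None of 13 measured heme synthesis genes and none of 22 measured red cell membrane and cytoskeleton genes passed 1.5-fold in either direction after adding 10 CPM, with median log2 ratios of 0.29 and 0.25. The nearest were Cpox, coproporphyrinogen oxidase, at 514 CPM in KO-labelled and 343 CPM in Control members, and Rhag, at 196 and 130.0 CPM. As plain CPM the Rhag ratio was 1.51 (1.42 to 1.61) and that of the spectrin gene Sptb 1.55 (1.37 to 1.76), and Rhag passed 1.5-fold in 4 of 13 alternatives. Of 13 measured iron genes, Slc25a37, the mitochondrial iron importer mitoferrin 1, was past 1.5-fold, at 50.8 CPM in KO-labelled and 26.6 CPM in Control members. Slc25a37 reached the minimum only in KO-labelled members, so being measured already required a high KO-labelled level. Fth1, the ferritin heavy chain, stood at 4213 CPM in KO-labelled and 4218 CPM in Control members. The list of 27 genes of terminal maturation had 14 measured members, none of them past 1.5-fold, with a median of 0.15. The 22 measured redox and globin chaperone genes had none past 1.5-fold and a median of 0.01.

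Of 22 measured erythroid transcription factors, E2f2 and Runx1 were at least 1.5-fold higher and none was lower, with a median log2 ratio of 0.09. Over all measured genes, 1.8% were at least 1.5-fold higher and 0.751% were lower. E2f2, a cell cycle factor of maturing erythroid cells, had 42.5 CPM in KO-labelled and 11.3 CPM in Control members, a ratio of 3.77 (3.13 to 4.56). Gata1 and Klf1 had ratios of 1.07 (0.994 to 1.14) and 0.984 (0.941 to 1.03). Of 10 measured genes of erythropoietin and Kit signalling, Pim1 and Ccnd3 were higher and none was lower. Pim1, a kinase induced by cytokine receptors, had 49.8 CPM in KO-labelled and 18.5 CPM in Control members. Ccnd3, cyclin D3, had 181 CPM in KO-labelled and 97.5 CPM in Control members. Both E2f2 and Pim1 reached the 30 CPM minimum only in KO-labelled members, so being measured already required a high KO-labelled level. E2f2, Runx1, Pim1 and Ccnd3 also stood higher in KO-labelled cells of the Car1 class. There E2f2 had 17.0 CPM in KO-labelled and 6.81 CPM in Control cells, Pim1 221 and 55.6 CPM, and Ccnd3 171 and 103 CPM. Epor, the erythropoietin receptor, had 136 CPM in KO-labelled and 118 CPM in Control members.

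The proliferation lists, too, held a share past 1.5-fold near that over all measured genes. None of 44 S phase genes passed 1.5-fold, with a median log2 ratio of 0.06. Among 42 measured G2/M genes, Mki67, the proliferation antigen Ki-67, was higher, at 598 CPM in KO-labelled and 356 CPM in Control members, and the median was 0.16. Top2a, topoisomerase 2 alpha, had 482 CPM in KO-labelled and 324 CPM in Control members, which did not pass 1.5-fold. Kif23, a kinesin of cell division, had 31.8 CPM in KO-labelled and 18.1 CPM in Control members. Kif23 and Top2a passed 1.5-fold in 4 of 13 alternatives each. Early erythroid progenitor genes split: of 14 measured, Apoe was higher and Car1 and Mt2 were lower, with a median of -0.05. Mt2, a metallothionein, had 118 CPM in KO-labelled and 204 CPM in Control members.

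**Figure D4:**
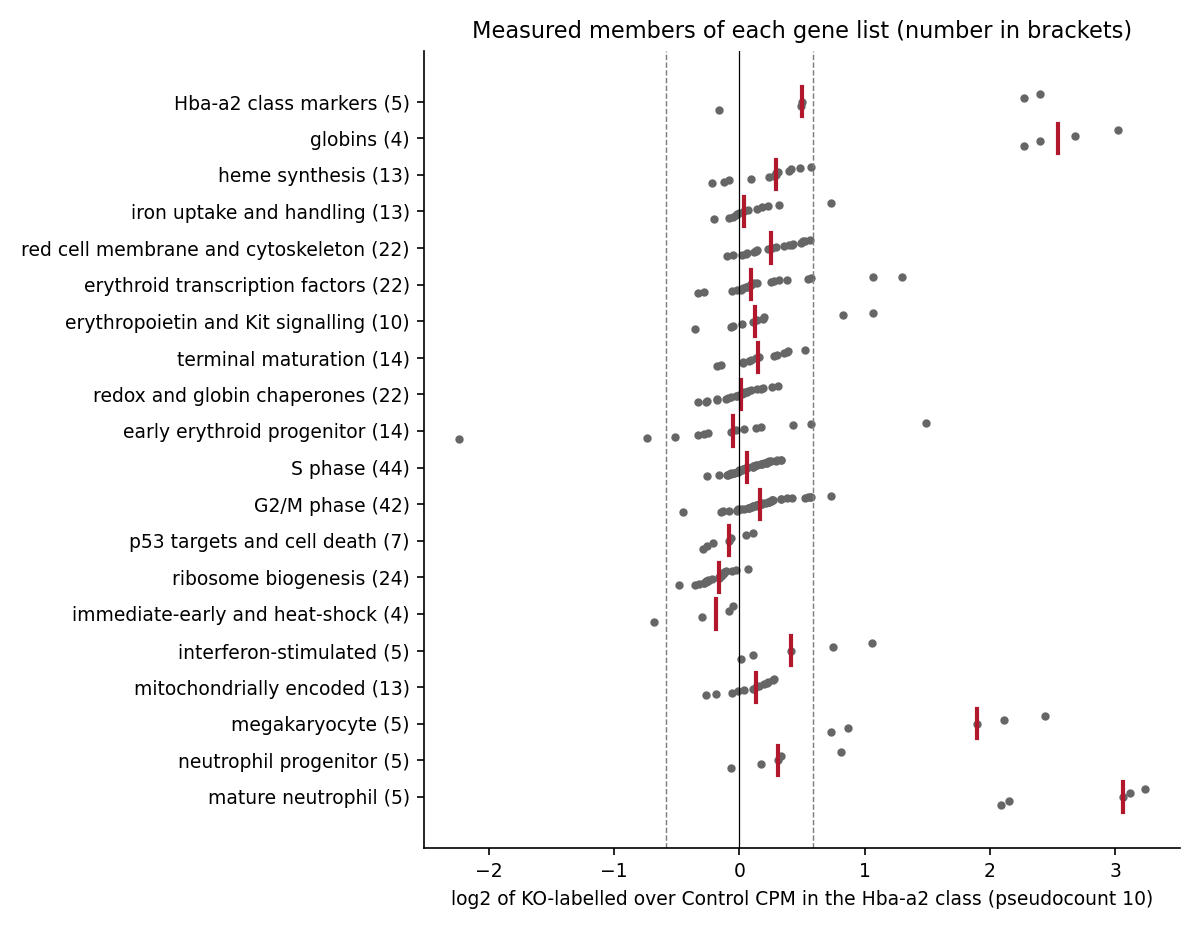
Log2 ratio of KO-labelled over Control CPM in the Hba-a2 class for the measured members of each gene list with at least 3 of them, 1 point a gene, with the list median as a red bar and dashed lines at 1.5-fold. The globin, megakaryocyte and mature neutrophil lists lie wholly to the right of the upper line. The medians of the other lists drawn lie between the dashed lines. A gene low in Control, such as Camp or Itga2b, is drawn only because its KO-labelled level passes the minimum.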

How the data were processed

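Single-cell RNA was measured in 1 library labelled Runx1 KO and 1 Control library. The deposited matrix holds counts (UMIs per gene and cell) for 31053 genes; the deposited cell annotation gives counts of UMIs and genes per cell, the mitochondrial fraction, a size factor (a ratio, cell UMIs over a constant), the library and the class. The submitters' processing notes name Cell Ranger and mm10, without versions; no source used here states how classes were assigned. Every deposited cell has at least 1000 detected genes. The library called WT in the annotation was taken as Control. One label field speaks of embryos, whereas tissue and extraction labels name marrow, which was taken as the source.

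UMIs were summed per class and library and given per 1000000 (CPM), and log2 ratios used a pseudocount of 10. Measured genes reached 30 CPM and 100 UMIs. Intervals of shares are exact Clopper-Pearson and of ratios exact conditional Poisson, at 95%, for counting error only; a count of 0 allows up to 3. Gene positions come from GENCODE M21 on GRCm38 (31011 of 31053 identifiers matched), promoters from RefSeq. Clusters were rebuilt with scanpy 1.11.5 and leidenalg 0.10.2 (2000 variable genes without mitochondrial ones, 30 components, 15 neighbours, resolution 0.5). Scrublet ran per library; doublets were kept in the main values and left out in an alternative. Scripts were tested on simulated data.

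Genes named were the 15 highest and 15 lowest by KO-labelled over Control ratio, predicted, clone-named, sex-linked and mitochondrial genes left out; the 15 highest and 10 lowest of the class over other cells in both libraries; the class markers; Runx1; and up to 4 members of each list with the largest ratio and its most abundant members. Some genes that these rules name are not reported here. Members and lists were chosen with earlier results of these data known.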

Additional observations from a re-analysis of the deposited data

How the results depend on the processing

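No paired analysis was possible because each genotype has 1 library. The counts that moved by over 1.5 times were these. Genes at least 1.5-fold higher in KO-labelled members, 79 as reported, numbered 155 with a minimum of 10 CPM and 30 UMIs and 148 with cells weighted equally. Genes at least 1.5-fold lower, 33 as reported, numbered 58 and 54 under the same alternatives and 64 with each cell thinned to 5000 UMIs. Genes at least 2-fold higher in the Hba-a2 than in the Car1 class of Control, 105 as reported, numbered 209 with cells weighted equally and 246 without cells of over 2 times the median UMIs. The other counts stayed within 1.5 times of those reported and the shares of cells within their intervals. The median globin share lay between 0.0172 and 0.0233% in KO-labelled and between 0.0067 and 0.00712% in Control members. Centring the ratios on their median gave 87 higher and 31 lower genes. Among named genes the log2 ratio of S100a8 turned to -0.097 in erythroid-like clusters and to -0.126 in the cluster led by Cldn13, Rhd and Car2, and that of Prtn3 turned to -0.04 without Scrublet doublets; the cause was not tested. Of the other values of named genes under alternatives, 1368 stayed within the counting interval of the reported ratio and 280 left it with no called gene changing sign; of list medians, 217 stayed and 36 moved. Alternatives that leave out cells of at least 1% globin, the 3 highest cells of a gene, or all cells outside the Cldn13 cluster were chosen after seeing the data. Leaving out a library was not possible. Single libraries, 294 to 318 cells and unknown numbers of KO mice limit every ratio to these libraries.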

Other observations

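Lists of protein production, stress and cell death had medians below 0 in KO-labelled over Control members, where the median over all measured genes was -0.02. None of 24 measured ribosome biogenesis genes passed 1.5-fold, and their median log2 ratio was -0.16. Npm1, the nucleolar protein nucleophosmin, had 2959 CPM in KO-labelled and 3786 CPM in Control members, and Nop10, a small nucleolar particle subunit, had 453 CPM in KO-labelled and 634 CPM in Control members. Of 4 measured immediate-early and heat-shock genes, with a median of -0.19, Hsph1, a heat-shock chaperone, was past 1.5-fold lower at 115 CPM in KO-labelled and 191 CPM in Control members. None of 7 measured p53 target and cell death genes passed 1.5-fold, with a median of -0.08. In the Car1 class the medians were -0.26 for ribosome biogenesis, -0.19 for immediate-early and heat-shock, and -0.007 for p53 target and cell death genes. Over all measured genes, 1.8% were at least 1.5-fold higher and 0.751% were lower.

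Of 5 measured interferon-stimulated genes, Ifitm3 and Ifi47 were past 1.5-fold higher, against 1.8% of all measured genes. Ifitm3, a membrane protein that restricts virus entry, had 125 CPM in KO-labelled and 55.0 CPM in Control members, and its relative Ifitm2 had 313 CPM in KO-labelled and 311 CPM in Control members. Cd48, a surface glycoprotein and the single measured gene of 15 multipotent progenitor markers, had 48.3 CPM in KO-labelled and 21.4 CPM in Control members. Ifi47 and Cd48 reached the 30 CPM minimum only in KO-labelled members, so being measured already required a high KO-labelled level. None of 13 mitochondrially encoded genes passed 1.5-fold, with a median of 0.13. No monocyte, basophil, eosinophil, lymphoid, macrophage or stromal marker was measured in the class. The Y-linked genes Eif2s3y and Ddx3y were present in members of both libraries, Eif2s3y at 82.3 CPM in KO-labelled and 60.0 CPM in Control members.

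The GATA letters occurred in the windows of 7 of 14 tabulated genes among the 15 highest in KO-labelled over Control members and of 1 of 12 among the 15 lowest, against 21.0% of all tabulated genes. The RUNX letters occurred in 2 of 14 and 3 of 12, against 18.9%, and the KLF letters in 2 of 14 and 0 of 12, against 4.09%. Among the highest genes are Hba-a1 and Hba-a2, whose windows were identical over 297 aligned bases, so their matches are not independent.

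The predicted gene Gm10036, left out of the ranking, had 117 CPM in KO-labelled and 19.6 CPM in Control members, and the clone-named gene AC160336.1 had 179 CPM in KO-labelled and 338 CPM in Control members.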
